A study of Sus scrofa with 63 samples.

Results

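The unexposed control sites of pigs that carried sulfur mustard lesions elsewhere on the abdomen were compared over time. Members were chosen by their label alone: all 27 arrays of unexposed control sites, of 63 arrays in the study. The rule used no measured value, though it was set with earlier results of these data known. They fall into 3 windows of 9 arrays, taken at 1, 2 and 4 h, at 24, 48 and 72 h, and at 168, 336 and 514 h after the other sites of the same animals were exposed. The 24 to 72 h window and the 168 to 514 h window were each compared with the 1 to 4 h window, which asks for a change in uninjured skin at a distance from the injury or after the handling of the animal. Both comparisons use the same 9 early arrays, so their results are not independent of each other.

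Female Yorkshire crossbred pigs were depilated and exposed on the belly to 400 µL of neat sulfur mustard, a blistering alkylating agent, for 8 min. A template marked 4 sites of 3 cm on the ventral abdomen, 2 exposed and 2 unexposed. At each of the 9 times 3 animals gave 1 exposed and 1 control array each, and 1 further animal, the sham, was prepared in the same way but never exposed. RNA from an 8 mm skin punch was hybridised to Affymetrix porcine genome arrays.

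All 27 control arrays thus come from depilated animals that were themselves exposed at other sites, the same 27 animals that gave the exposed arrays. No array of any group was taken before the procedure, so the earliest control sites are themselves 1 h past it. Each time has its own 3 animals, and a time is also its own cohort of sacrifice, with 16 sacrifice days over the series. Arrays were scanned in 3 periods that cut across the windows, 1 with 24 and 168 h, 2 with 48 and 336 h, and 4 with 72 and 514 h, and scan period was a term of every window comparison. The p-values measure the spread left between arrays after window and scan period. That is mostly the spread between animals of one time, and in part the spread between times.

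By the histology that the labels give, the control sites were normal throughout. All 9 sites at 1 to 4 h and all 9 at 24 to 72 h scored 0 for each of 5 kinds of lesion, among them epidermal necrosis, dermal necrosis and vesicles. All 9 sites at 168 to 514 h had the healing score of 13 that is given for normal skin. All 9 exposed sites at 24 to 72 h had a lesion, and the exposed sites at 168 to 514 h scored 5 to 10.

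Skin of the trunk holds a keratinised epidermis, a collagen-rich dermis, hair follicles with sebaceous glands, and subcutaneous fat above a thin muscle sheet. Keratinocytes and sebocytes make fatty acids and cholesterol themselves, and secrete them as barrier lipid and sebum. Skin injury is known to release cytokines and stress hormones that can act on distant tissue, and depilation acts on the skin of all animals in the study.

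The labelled tissue was checked against marker genes only coarsely, since the signal of a probe set depends on its own affinity as well as on the RNA. On the control arrays the median log2 signal was 12.12 over 8 measured markers of differentiated keratinocytes and 12.37 over 19 fibroblast and matrix genes. It was 8.73 over the 4 measured basal keratinocyte markers and 7.06 over 5 hair follicle markers. Skeletal muscle RNA varied from array to array: MYH2, a myosin heavy chain of fast fibres, ran from 5.908 to 13.99 on the same probe set over the 27 arrays. The array medians lay between 7.765 and 7.862.

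Few probe sets passed the threshold between the windows of control sites. At 24 to 72 h against 1 to 4 h, 98 of 23999 probe sets passed an adjusted p of 0.05 in limma, which is 0.408%, and of these 71 were higher and 27 lower. At 168 to 514 h against 1 to 4 h, 132 probe sets (0.55%) passed, 108 higher and 24 lower. In each comparison 9 of the probe sets that passed differed by 2-fold or more, and all of these were higher in the later window. Between 168 to 514 h and 24 to 72 h no probe set passed (0%), while 2450 had an unadjusted p below 0.05. In the comparisons with 1 to 4 h, 2917 at 24 to 72 h and 2904 at 168 to 514 h had one. At the exposed sites of the same animals the same contrasts called 7851 (32.7%) and 6801 (28.3%) probe sets.

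Counted as genes with 1 probe set each, 36 of 6765 (0.532%) were higher and 4 (0.0591%) lower at 24 to 72 h. At 168 to 514 h, 56 (0.828%) were higher and 9 (0.133%) lower. The median change over all 6765 genes was 0.01 in both comparisons on the log2 scale. All of the called genes moved in the same direction within each of the 3 scan periods. The calls were made from these same within-period changes, so this agreement is no separate test of them.

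The call of the 24 to 72 h comparison depended on how the times and the storage entered the fit. With the 3 arrays of a time linked as a random block, no probe set passed at 24 to 72 h (smallest adjusted p = 0.0929) and 28 passed at 168 to 514 h. With the sacrifice day as a random block instead, 92 and 119 passed. Leaving out all arrays of 4 h or of 24 h also brought the 24 to 72 h count to 0, and leaving out those of 4 h brought the 168 to 514 h count to 9. Biopsies of the 1 to 4 h window were stored for 100 to 441 days before RNA extraction, those of 24 to 72 h for 28 to 123 days and those of 168 to 514 h for 12 to 484 days. With log storage days as a covariate the counts were 0 and 66, and with the date of RNA extraction in place of the scan period 1 and 5.

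Single arrays moved the counts as well. At 24 to 72 h the count was 212 without array 1 of 1 h, and it fell without array 3 of 1 h (56), arrays 1 and 2 of 2 h (35 and 48), arrays 1 and 3 of 4 h (61 and 60), arrays 1, 2 and 3 of 24 h (60, 41 and 53), array 3 of 48 h (23) and arrays 1 and 3 of 72 h (65 and 39). At 168 to 514 h the count was 265 without array 1 of 1 h and 252 without array 3 of 168 h. It fell to 50 without array 3 of 1 h, to 67 and 86 without arrays 1 and 2 of 2 h, and to 66 and 77 without arrays 1 and 3 of 4 h. Among the late arrays it fell to 74 and 57 without arrays 1 and 2 of 168 h, to 66 and 57 without arrays 2 and 3 of 336 h, and to 59 without array 2 or array 3 of 514 h.

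SCD had the largest rise at the control sites in both comparisons, and 2 further genes of fatty acid synthesis, ELOVL6 and FASN, were among the 4 largest late rises. SCD, the desaturase that makes oleate from stearate, had log2 signals of 9.54, 10.56 and 12.97 (lowest, median and highest of 9 arrays) at 1 to 4 h. They were 11.18, 12.94 and 13.86 at 24 to 72 h, and 12.73, 13.27 and 13.51 at 168 to 514 h. The early arrays were spread over a wide range and overlapped the later ones: 4 of 9 arrays at 24 to 72 h and 6 of 9 at 168 to 514 h lay above every early array. SCD rose by 1.76 ± 0.36 (log2 change ± SE, 3.38-fold, adjusted p = 0.0288) to 24 to 72 h and by 2.41 ± 0.36 (5.31-fold, adjusted p = 0.00217) to 168 to 514 h.

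Within scan periods the change of SCD was uneven. It was 2.58 from 1 to 24 h, 0.49 from 2 to 48 h and 2.20 from 4 to 72 h. For the late times it was 2.55 from 1 to 168 h, 1.89 from 2 to 336 h and 2.79 from 4 to 514 h. The 3 arrays of 2 h, with a mean of 11.56 ± 1.39 (SD, n = 3), were the most variable of any time.

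ELOVL6, which lengthens saturated fatty acids, separated the windows more cleanly. Its lowest, median and highest log2 signals were 9.63, 10.85 and 11.09 at 1 to 4 h, 10.76, 12.01 and 13.40 at 24 to 72 h, and 11.79, 12.30 and 12.62 at 168 to 514 h. All 9 late arrays and 7 of 9 arrays at 24 to 72 h lay above every early array. ELOVL6 rose by 1.35 ± 0.28 (2.55-fold, adjusted p = 0.0283) and by 1.60 ± 0.28 (3.03-fold, adjusted p = 0.0066). All 4 probe sets of ELOVL6 passed at 168 to 514 h and 2 of 4 at 24 to 72 h.

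FASN, the fatty acid synthase, passed in the late comparison. Its signals were 10.39, 11.21 and 12.13 at 1 to 4 h, 10.95, 12.04 and 13.68 at 24 to 72 h, and 12.28, 12.67 and 12.88 at 168 to 514 h. Every late array lay above every early array, and the arrays at 24 to 72 h overlapped both. FASN rose by 1.46 ± 0.28 (2.75-fold, adjusted p = 0.0117) at 168 to 514 h, while its change of 0.97 ± 0.28 at 24 to 72 h had an adjusted p of 0.109. Of its 4 probe sets, 3 passed at 168 to 514 h and the dimmest, with a change of 0.22, did not.

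With the arrays of a time as a random block, SCD (adjusted p = 0.0168) and ELOVL6 (adjusted p = 0.0351) kept their late call, and FASN did not (adjusted p = 0.0625). The 24 to 72 h calls of SCD and ELOVL6 were lost in that fit (adjusted p = 0.113 and 0.115).

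**Figure D1:**
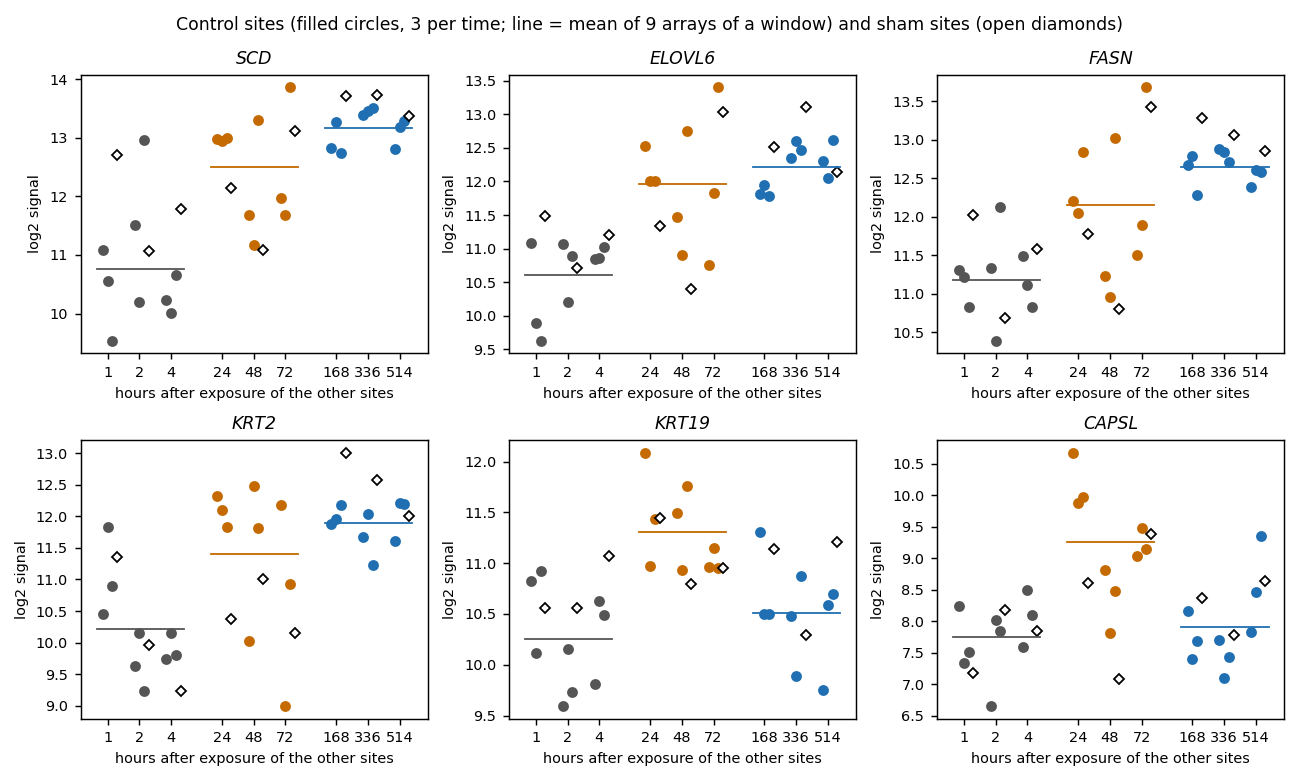
Log2 signal (y axis) of SCD, ELOVL6, FASN, KRT2, KRT19 and CAPSL at each time in hours (x axis), with 3 control arrays per time as filled circles, the mean of each window of 9 arrays as a line and the sham array of each time as an open diamond. ELOVL6 and FASN at 168 to 514 h lie above all early control arrays, while KRT19 and CAPSL are high at 24 to 72 h and back near their early level in the late window.

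SCD and FASN are also members of the adipocyte list, whose other members did not pass. Of 14 measured adipocyte genes 1 rose at 24 to 72 h (SCD) and 2 rose at 168 to 514 h (SCD and FASN), and the list medians were 0.06 and 0.19 against 0.01 for all genes. ADIPOQ, the fat-cell hormone adiponectin, had changes of 0.07 and 0.39. FABP4, LEP and PPARG, which mark fat cells, had changes of 0.18 or less in both windows, and none passed. ACACA, the carboxylase ahead of FASN in the pathway, had changes of -0.05 and 0.03. Its chosen probe set was dim, with a mean log2 signal of 6.16 over the control arrays, so ACACA is not shown to be unchanged. DGAT2, the last enzyme of triglyceride synthesis, had changes of 0.65 (adjusted p = 0.0942) and 0.70 (adjusted p = 0.0618). In a tissue punch, a change in the number of cells of a type and a change in RNA per cell cannot be told apart.

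Of 10 measured cholesterol synthesis genes 2 rose at 24 to 72 h: FDPS, which makes farnesyl diphosphate, rose by 0.54 ± 0.12 (adjusted p = 0.0397) and CYP51, the lanosterol demethylase, by 0.50 ± 0.11 (adjusted p = 0.0425). With the time block neither passed (adjusted p = 0.141 for both). A further 6 were higher at an unadjusted p below 0.05, and the list median was 0.37. Of all 6765 genes, 733 were higher and 317 lower at that unadjusted p. HMGCS1, an early enzyme of the pathway, had a change of 0.55 (adjusted p = 0.0703), and SQLE, the squalene epoxidase, one of 0.43 (adjusted p = 0.058). FDFT1, the squalene synthase, was the only member below 0, at -0.09. No member passed at 168 to 514 h, where the median was 0.22. Among 25 settings of the fit, the number of members that passed at 24 to 72 h ran from 0 to 6.

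Other called genes of lipid metabolism, chosen here after their values were seen, lay beside them at 24 to 72 h. TM7SF2, a sterol reductase, rose by 0.54 (adjusted p = 0.0231), ACAT2, a thiolase, by 0.52 (adjusted p = 0.032), and FADS1, a fatty acid desaturase, by 0.35 (adjusted p = 0.0288). POR, the electron donor of microsomal cytochromes P450, rose by 0.31 (adjusted p = 0.0393).

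Of 8 measured genes of keratinocyte differentiation 1 rose at 24 to 72 h (KLK7) and 2 rose at 168 to 514 h (KRT2 and KLK7). With the time block none passed (late adjusted p = 0.0863 for KRT2 and 0.112 for KLK7). All 8 changes were above 0 in both windows, most of them without passing, and the list medians were 0.25 and 0.40. Of all 6765 genes, 3599 and 3621 had a change above 0. KRT2, a keratin of the upper epidermis, had signals of 9.24, 10.15 and 11.82 at 1 to 4 h, 9.00, 11.83 and 12.48 at 24 to 72 h, and 11.23, 11.95 and 12.22 at 168 to 514 h. The arrays at 24 to 72 h covered the whole early range, and 6 of 9 late arrays lay above every early one. KRT2 rose by 1.68 ± 0.34 (3.2-fold, adjusted p = 0.0215) at 168 to 514 h, and its change of 1.20 ± 0.34 at 24 to 72 h had an adjusted p of 0.107.

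KLK7, a protease that sheds the outer epidermal layer, rose in both windows, by 0.62 ± 0.14 (adjusted p = 0.0491) and 0.65 ± 0.14 (adjusted p = 0.0344). None of its 9 arrays at 24 to 72 h lay above every early array, since the early range already reached 12.21. IVL, involucrin of the cornified envelope, had a late change of 0.64 (adjusted p = 0.0855). KRT1 and KRT10, the main keratins of the suprabasal epidermis, had changes of 0.12 or less, close to the top of the signal range. SPRP, which is induced in cornifying and activated keratinocytes, was the 1 of 8 activated keratinocyte genes that rose at 168 to 514 h, by 0.46 ± 0.10 (adjusted p = 0.0417).

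KRT19 and CAPSL rose at 24 to 72 h and did not pass at 168 to 514 h. KRT19, a keratin of gland ducts and other simple epithelia, had signals of 9.60, 10.16 and 10.92 at 1 to 4 h, 10.94, 11.15 and 12.09 at 24 to 72 h, and 9.75, 10.50 and 11.30 at 168 to 514 h. All 9 arrays at 24 to 72 h lay above every early array. KRT19 rose by 1.05 ± 0.19 (2.08-fold, adjusted p = 0.0199), and its late change was 0.26 (adjusted p = 0.633). The other 5 members of the gland list also had changes above 0 at 24 to 72 h without passing. The largest was 0.80 for FOXA1 (adjusted p = 0.058), a factor of gland epithelium. Of all 6765 genes, 3599 had a change above 0 in that comparison.

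CAPSL, a calcium-binding protein related to calcyphosine, had signals of 6.66, 7.84 and 8.50 at 1 to 4 h, 7.81, 9.15 and 10.68 at 24 to 72 h, and 7.10, 7.71 and 9.35 at 168 to 514 h. It rose by 1.50 ± 0.27 (2.84-fold, adjusted p = 0.0199) at 24 to 72 h, with 7 of 9 arrays above every early one. Its late change was 0.15 (adjusted p = 0.881). CAPSL had the smallest p of the direct comparison of the later windows, -1.35 from 24 to 72 h to 168 to 514 h (adjusted p = 0.0975), followed by FNDC1 at 0.74 and ACTG2 at -0.70, so a difference between the later windows was not shown for any of them.

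The remaining rises at 24 to 72 h among the 12 largest were smaller. PAPSS2, which makes the activated sulfate used on glycans, rose by 1.01 ± 0.22 (adjusted p = 0.0398), and KIAA1324 and TMEM254 by 0.87 and 0.83. GMDS, of GDP-fucose synthesis, rose by 0.57, FMO5, a flavin mono-oxygenase, by 0.56, and FAM114A1 by 0.55. The second probe set of GMDS had a change of 0.29 and did not pass (adjusted p = 0.121). CD93, a surface protein of endothelial and myeloid cells, rose by 0.55 (adjusted p = 0.0241) at 24 to 72 h and by 0.53 (adjusted p = 0.0229) at 168 to 514 h, and in each window 7 of 9 arrays lay above every early array. Its second, dim probe set had changes of -0.03 and 0.11.

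By the probe set chosen for each gene, 4 genes fell at 24 to 72 h. AGTR1, the angiotensin II receptor, fell by 0.48 (adjusted p = 0.0398), FBXW4 by 0.45 (adjusted p = 0.032), CCDC28A by 0.33 (adjusted p = 0.0491) and EPC1, a subunit of a histone acetyltransferase complex, by 0.31 (adjusted p = 0.0398). NCOA1, a coactivator of nuclear receptors, was not among them by its chosen probe set (-0.21, adjusted p = 0.104), but 3 of its 5 other probe sets were lower and passed (-0.32, -0.44 and -0.35). The second probe set of FBXW4 had a change of -0.28 and did not pass (adjusted p = 0.291). Next in line, and not past the threshold, were SSBP2 at -0.35 (adjusted p = 0.0513), SLIRP at -0.22, C1H14orf37 at -0.38, BRD8 at -0.30 and SUGP2 at -0.25.

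MRAS, a small GTPase related to RAS, rose at 168 to 514 h in every fit that left out 1 array or 1 time. Its signals were 8.74, 8.87 and 9.56 at 1 to 4 h, 9.04, 9.58 and 10.14 at 24 to 72 h, and 9.56, 9.93 and 10.50 at 168 to 514 h, and 7 of 9 late arrays lay above every early array. MRAS rose by 0.98 ± 0.15 (1.98-fold, adjusted p = 0.00217) and kept the call with the time block (adjusted p = 0.0168). SELENOM, a selenoprotein of the endoplasmic reticulum, rose by 0.79 ± 0.13 (adjusted p = 0.00442) and also kept it (adjusted p = 0.0275).

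The other late rises among the 12 largest lost the call with the time block. ALDH1L1, an enzyme of folate metabolism, rose by 0.93 (adjusted p = 0.0406) with all 9 arrays above every early one. DAPL1, a gene of differentiating epithelia, rose by 0.87 (adjusted p = 0.0229) with 8 of 9. The second, dimmer probe set of ALDH1L1 had a late change of 0.18 and did not pass (adjusted p = 0.204). FABP3, the fatty acid binding protein of heart and muscle, rose by 0.86 (adjusted p = 0.0476), and C1QTNF6, a secreted collagen-like protein, by 0.76 (adjusted p = 0.029). LOC100154873 and LOC396867 rose by 1.00 and 0.82.

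The late falls numbered 9. CILP, a matrix protein of cartilage and connective tissue, fell by 0.85 ± 0.19 (adjusted p = 0.0372), though its dim second probe set had a change of 0.03. GADD45B, a stress-inducible gene, had signals of 9.24, 9.72 and 10.10 at 1 to 4 h, 8.93, 9.30 and 9.64 at 24 to 72 h, and 8.90, 9.16 and 9.35 at 168 to 514 h. It fell by 0.58 ± 0.10 (adjusted p = 0.00997), both of its probe sets passed, and it was the 1 fall that kept the call with the time block (adjusted p = 0.0419). MLLT3 fell by 0.51, SLC31A2, a copper transporter, by 0.44, and RUNX1T1 by 0.44. RPF1 of ribosome assembly fell by 0.34, WTAP of the RNA methylation complex by 0.30, NCOA1 by 0.25, and SLIRP by 0.23. ANO6, CRYZL1 and LYRM1, which came next, did not pass.

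**Figure D2:**
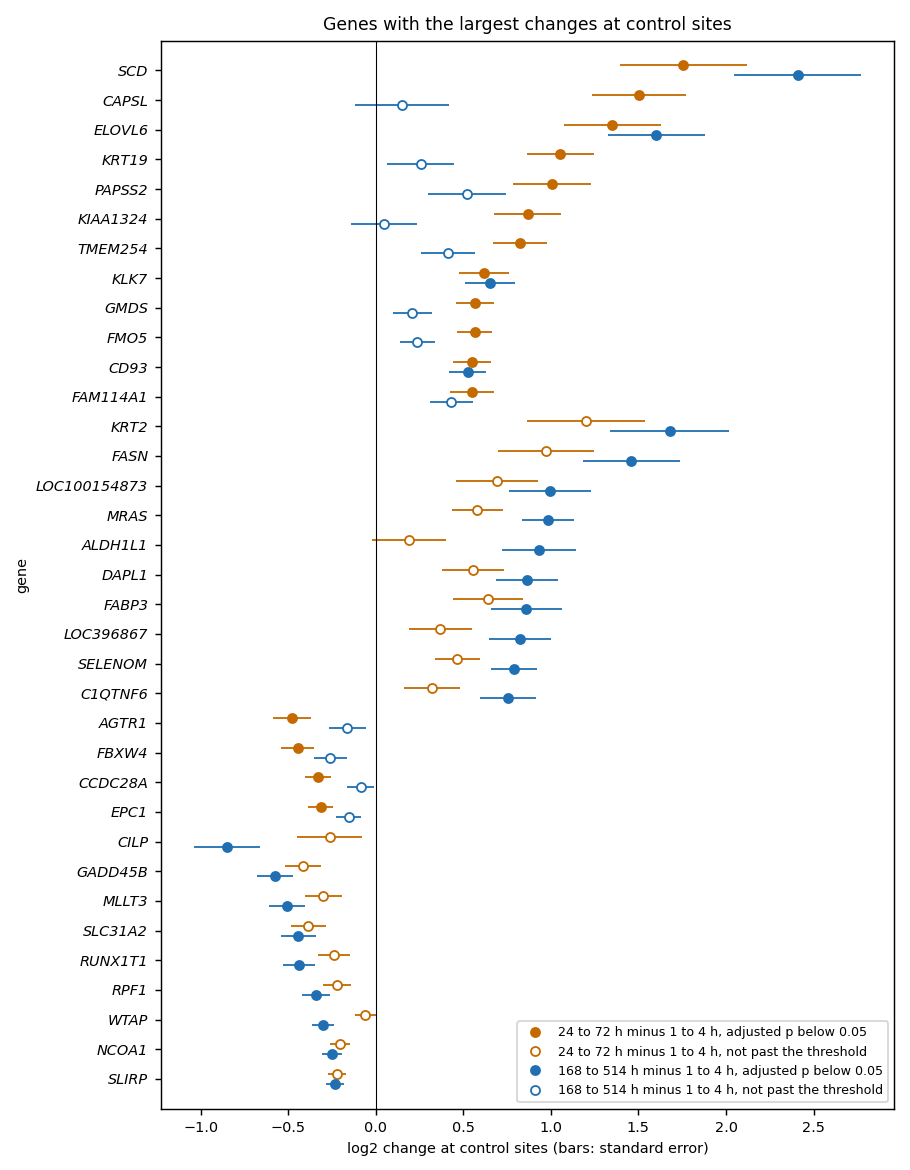
Log2 change at control sites with its standard error (x axis) for the genes with the largest rises and falls (y axis), orange for 24 to 72 h minus 1 to 4 h and blue for 168 to 514 h minus 1 to 4 h, filled where the adjusted p is below 0.05. SCD leads both comparisons at 1.76 and 2.41, and the falls are no larger than 0.85.

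Called genes outside the rule, picked after their values were seen, included genes of matrix and of secretion. Late rises of collagen handling were FKBP10 (0.61, adjusted p = 0.006), FKBP9 (0.56), LOXL1 (0.60), P4HA2 (0.42) and COL6A2 (0.39). Of the 19 genes of the fibroblast and matrix list, however, only THY1 rose at 168 to 514 h, by 0.38 ± 0.08 (adjusted p = 0.0328). In that list 17 of 19 lay above 0 and the median was 0.19, where 3621 of all 6765 genes lay above 0. SURF4, a cargo receptor of the secretory pathway, rose by 0.42 (adjusted p = 0.0188) and 0.30 (adjusted p = 0.0399), and YKT6, a membrane fusion protein, by 0.38 in both windows.

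The lists of stress and immune genes held few called genes, as did the array as a whole, where 0.532% of genes rose and 0.0591% fell by 24 to 72 h, and 0.828% rose and 0.133% fell by 168 to 514 h. With shares this small a list of this size may hold none by its size alone. Of 22 inflammatory cytokines and chemokines none passed in either window, and their medians were 0.04 and -0.003, where all genes had 0.01. IL6 had changes of -0.01 and 0.01, IL1B of 0.04 and 0.03 and TNF of 0.03 and 0.01. CXCL8, the neutrophil chemokine, had changes of 0.26 and 0.80, neither past the threshold (adjusted p = 0.87 and 0.505). IL18 at 24 to 72 h had 0.56 (adjusted p = 0.099).

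No gene passed among 19 neutrophil and macrophage genes, where the medians were 0.16 and 0.05 at control sites and 1.57 and 0.76 at the exposed sites. None passed among 16 complement and acute phase genes (medians 0.12 and -0.09), 20 interferon-stimulated genes (0.09 and -0.16) or 13 lymphocyte and mast cell genes (-0.02 and -0.05). With a p that misses the threshold these lists are not shown to be unchanged.

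Targets of stress hormones and of cell stress were alike in this. Of 13 glucocorticoid-responsive genes none passed, with medians of -0.05 and -0.03. The members ran from -0.998 to 0.333 at 24 to 72 h and from -0.361 to 0.223 at 168 to 514 h. FKBP5, a sensitive target of the glucocorticoid receptor, had changes of -0.26 and -0.36, while PER1 and TSC22D3 lay within 0.07 of 0. Of 17 heat shock and unfolded protein genes none passed, with medians of 0.09 and -0.02. Of 15 immediate early genes only GADD45B passed, in the late fall above, and FOS and EGR1 had changes of 0.22 and 0.36 at 24 to 72 h without passing.

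Of 18 p53 targets, the genes that DNA damage induces, 1 passed: PHLDA3 rose by 0.45 ± 0.09 at 24 to 72 h (adjusted p = 0.0233). Its signals were 9.56, 9.72 and 10.40 at 1 to 4 h and 9.90, 10.40 and 10.74 at 24 to 72 h, with 3 of 9 arrays above every early one. The change of PHLDA3 was 1.37 at the exposed sites and 0.32 at the sham sites. CDKN1A, the best-known p53 target, had changes of 0.20 and 0.05, and the list medians were 0.01 and 0.03.

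None of 25 cell cycle genes passed in either window, with medians of -0.05 and 0.14. In the late window 7 of them had an unadjusted p below 0.05, all higher, and 21 of 25 lay above 0. Of all 6765 genes, 674 were higher and 369 lower at that unadjusted p, and 3621 lay above 0. No gene passed among 58 ribosomal protein genes, 59 respiratory chain genes, 7 circadian clock genes, 14 NRF2 targets, 11 hypoxia and glycolysis genes or 15 wound proteases and inhibitors. The same held for 12 endothelial, 8 smooth muscle, 5 nerve, 8 melanocyte, 5 hair follicle and 4 basal keratinocyte genes, and for the other lists.

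**Figure D3:**
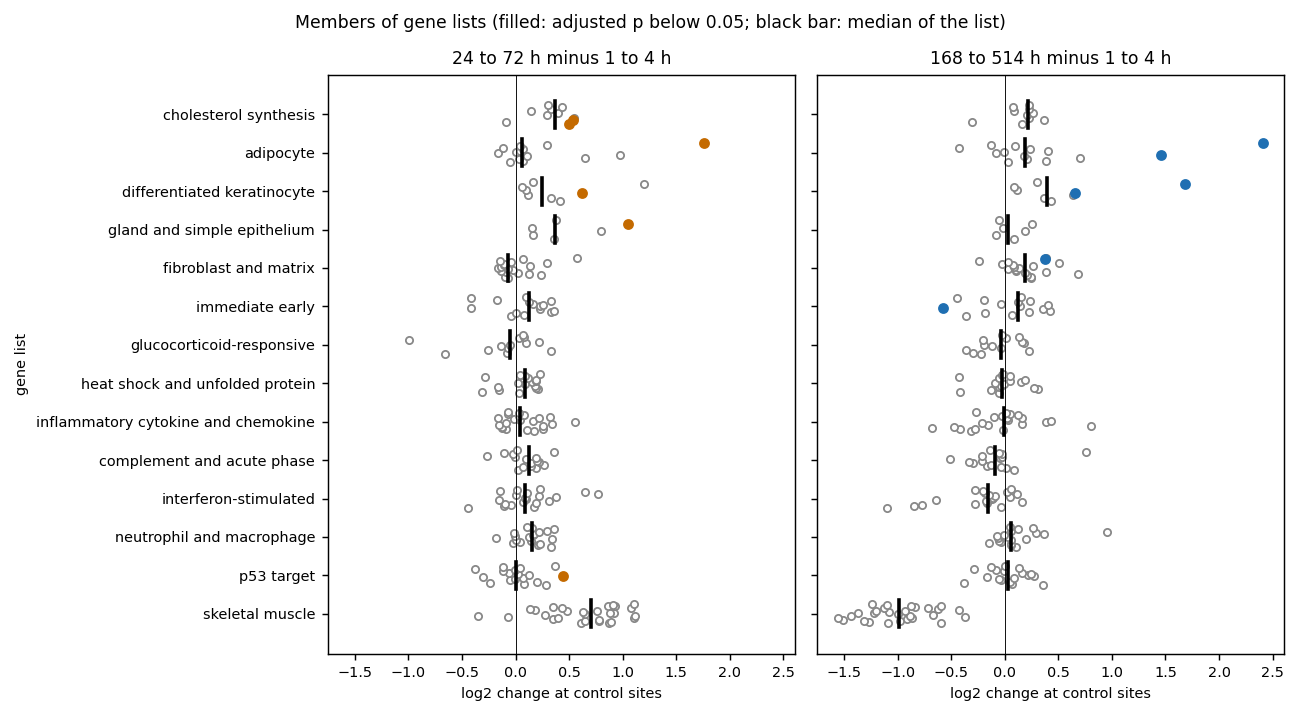
Log2 change at control sites (x axis) of each measured member of 14 gene lists (y axis), at 24 to 72 h on the left and at 168 to 514 h on the right, filled where the adjusted p is below 0.05 and with a bar at the list median. At 24 to 72 h, 9 of 10 cholesterol synthesis genes and all 8 differentiated keratinocyte genes lie to the right of 0. Few of them are filled, and 3599 of all 6765 genes had a change above 0. The skeletal muscle list runs from a median of 0.70 to one of -0.99 with no called member.

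Muscle content differed widely between arrays of one time. A muscle score was taken on each array as the average log2 signal of 28 skeletal muscle genes, and was 7.03, 11.6 and 13.4 (lowest, median and highest) at 1 to 4 h. It was 9.64, 11.1 and 13.1 at 24 to 72 h, and 6.84, 10.7 and 13.0 at 168 to 514 h. The windows overlapped throughout, although 4 of the 9 late arrays lay near 7 and the other 5 at 10.7 or more.

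Between windows the muscle score differed by 0.63 at 24 to 72 h and by -0.99 at 168 to 514 h from 1 to 4 h, and by -1.63 between the later windows. In an exact permutation test within scan periods (8000 permutations, two-sided) the p-values were 0.484, 0.437 and 0.140, or 0.830, 0.830 and 0.749 adjusted over 12 comparisons. No muscle gene passed in either comparison, and the list medians were 0.70 and -0.99. In a fit that held the muscle score they became 0.01 and 0.06.

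The 24 to 72 h calls held with muscle content in the fit. All 36 higher and all 4 lower genes were still called once the muscle score entered the fit, and the number of probe sets called was 333. Of the late calls, 32 of the 56 higher and 6 of the 9 lower genes were called with it, and the count of probe sets was 83. SCD, ELOVL6, FASN, KRT2 and MRAS were among those called. FABP3 (adjusted p = 0.0541), ALDH1L1 (adjusted p = 0.0546) and CILP (adjusted p = 0.0563) were not. The 3 differences of 3 prime from 5 prime control probe sets, which are used as a sign of RNA integrity, gave adjusted p-values of 0.749 to 0.963 between windows. The GAPDH difference moved with the muscle score over the 27 control arrays (Pearson r = -0.856, both taken from the same arrays), so it does not show integrity alone.

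**Figure D4:**
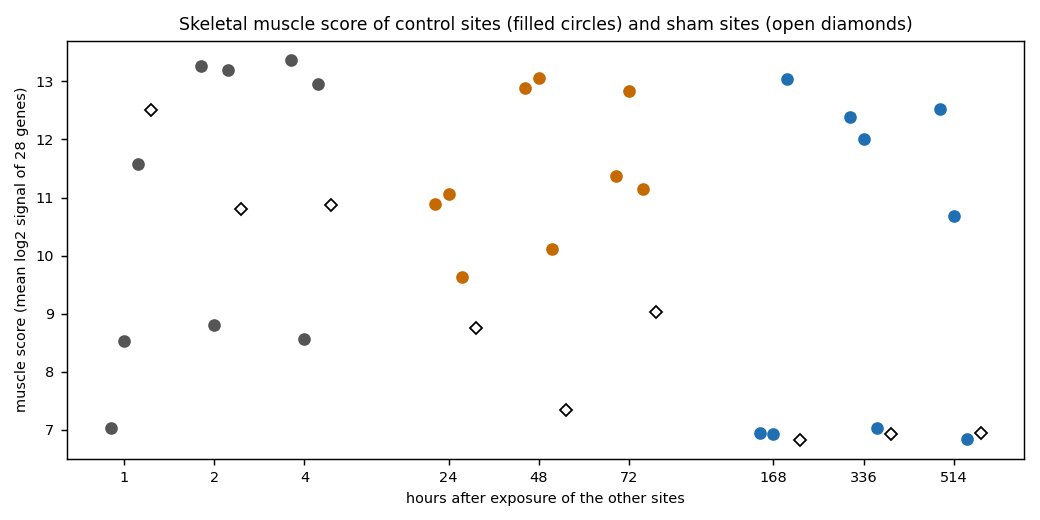
Muscle score (y axis, mean log2 signal of 28 genes) of each array at each time in hours (x axis), with 3 control arrays per time as filled circles and the sham array as an open diamond. Control arrays spread from 6.84 to 13.4 with all windows overlapping, whereas the sham arrays go from 10.8 to 12.5 at 1 to 4 h down to 6.83 to 6.94 at 168 to 514 h.

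Within a single scan period, 3 arrays of a later time were set against 3 of an early time. From 1 h, 8 probe sets (0.0333%) passed at 24 h and 17 (0.0708%) at 168 h. From 2 h, 83 (0.346%) passed at 48 h and 1 (0.00417%) at 336 h. From 4 h, 12 (0.05%) passed at 72 h and 86 (0.358%) at 514 h. The spread in these tests was estimated over all 27 arrays. Leaving out 1 of the 6 arrays of a pair moved these counts to 2 to 16 and 0 to 10 from 1 h, to 4 to 68 and 0 to 13 from 2 h, and to 0 to 42 and 0 to 289 from 4 h. With the 6 arrays of each pair alone, 1 probe set passed from 1 to 168 h and none in the pairs from 1 to 24 h, 2 to 48 h, 4 to 72 h and 4 to 514 h.

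The comparison of 48 with 2 h was almost wholly upward, 80 higher and 3 lower, while that of 514 with 4 h was split 54 to 32. KRT19 was highest relative to its early partner in the 48 h comparison, at 1.57, against 0.88 for 24 h and 0.71 for 72 h. CAPSL was highest in the 24 h comparison, at 2.48, against 0.86 for 48 h and 1.17 for 72 h. GADD45B was lowest in the comparisons with 1 h, at -0.78 for 24 h and -0.86 for 168 h, against -0.29 for 336 h and -0.58 for 514 h.

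Sham animals give the same windows without an exposed site, with 3 arrays each. No probe set passed for a different change at control and at sham sites, at 24 to 72 h (0%) or at 168 to 514 h (0%). At an unadjusted p below 0.05 there were 418 and 406. The sham sites alone gave no call either, with 1040 and 1607 at an unadjusted p below 0.05. Of the 36 genes that rose at control sites at 24 to 72 h, 35 had a change above 0 at sham sites, with a median of 0.27 against 0.51 at control sites. All 4 falls were falls in sign at sham sites, with a median of -0.42 against -0.39 at control sites. The median sham change over all 23999 probe sets was 0.003 at 24 to 72 h and -0.0001 at 168 to 514 h. Sham and control arrays of one time share their scan period. In the 3 windows sham biopsies were stored for 100 to 440, 5 to 122 and 12 to 483 days before RNA extraction. Whether the agreement in sign exceeds that of all genes was not tested. The called genes were picked by their change at the control sites, which favours large values there. The medians at control and sham sites are thus not a like comparison of size, here or at 168 to 514 h.

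At 168 to 514 h the sham median of the higher genes lay closer to the control median, and that of the lower genes did not. Of the 56 higher genes 55 had a change above 0 at sham sites, with a median of 0.41 against 0.48, and all 9 lower genes were below 0, with a median of -0.35 against -0.44. The sham medians rest on 3 animals per window, and their muscle score fell without overlap from 10.8 to 12.5 at 1 to 4 h, through 7.34 to 9.03, to 6.83 to 6.94. Once the muscle score was a term of the fit, again no probe set passed for a difference between control and sham sites in either window.

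**Figure D5:**
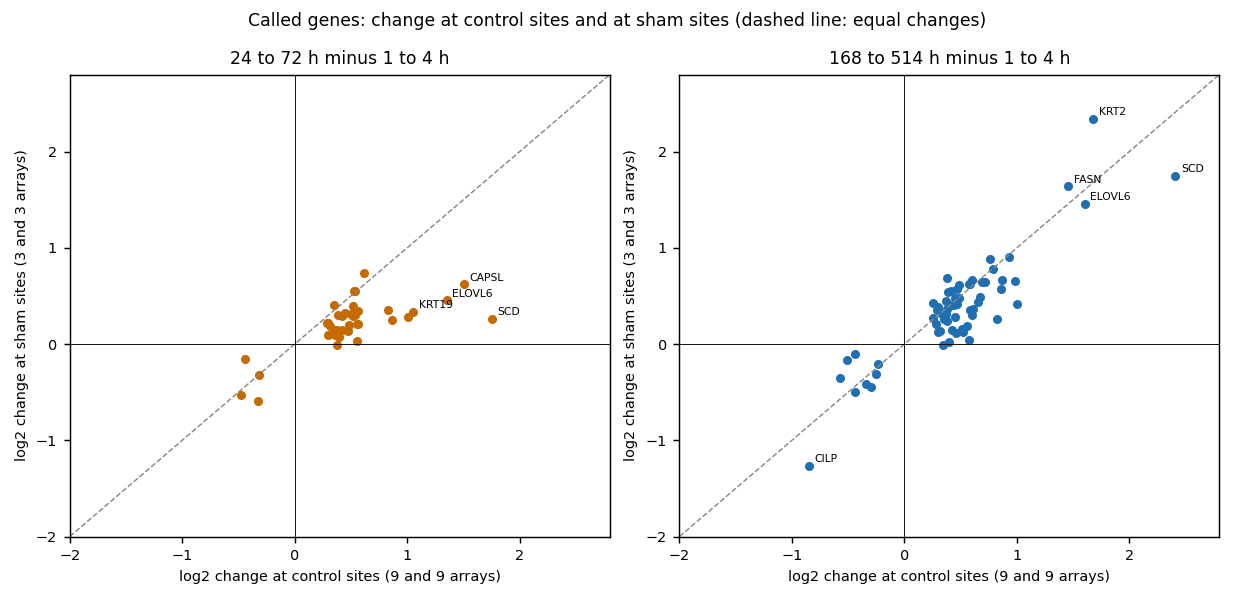
Log2 change of each called gene at sham sites (y axis, 3 against 3 arrays) against its change at control sites (x axis, 9 against 9 arrays), at 24 to 72 h on the left and at 168 to 514 h on the right, with a dashed line where both are equal. Nearly all genes have the same sign in both, and SCD at 24 to 72 h lies far below the line, with 0.26 at sham and 1.76 at control sites. The genes were picked by their change at control sites, which favours large changes on the x axis.

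The sham values of the fatty acid genes were small at 24 to 72 h and large at 168 to 514 h. The change of SCD at sham sites was 0.26 at 24 to 72 h and 1.75 at 168 to 514 h, against 1.76 and 2.41 at control sites. The difference of control from sham was 1.49 ± 0.73 (unadjusted p = 0.0507 in limma) and 0.66 ± 0.73 (unadjusted p = 0.375), so no difference was shown. The sham arrays of SCD were 12.71, 11.07 and 11.78 at 1, 2 and 4 h, and 12.14, 11.09 and 13.12 at 24, 48 and 72 h. They were 13.72, 13.73 and 13.37 at 168, 336 and 514 h, above every earlier sham array.

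ELOVL6 changed by 0.46 and 1.46 at sham sites, FASN by 0.57 and 1.64, and KRT2 by 0.33 and 2.34. Each of these late sham values is close to or above the late value at control sites, which were 1.60, 1.46 and 1.68. The sham arrays of ELOVL6 were 11.48, 10.71 and 11.21 at 1, 2 and 4 h. They were 11.33, 10.4 and 13.03 at 24, 48 and 72 h. Those of FASN were 12.02, 10.68 and 11.58, then 11.77, 10.8 and 13.42. For both genes the sham array of 72 h was thus well above that of 4 h, while those of 24 and 48 h were near their early partners. KRT19 (0.34 at sham against 1.05 at control sites) and CAPSL (0.62 against 1.50) were lower at sham sites at 24 to 72 h, with unadjusted p-values of 0.063 and 0.121 for the difference. By smallest p, the differences from sham at 24 to 72 h were TBC1D10B (-0.39), STAR (-0.45) and LOC106504299 (0.64), and at 168 to 514 h PTHLH (0.71), EDF1 (-0.67) and SLC25A39 (-0.51), none past the threshold.

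The called genes were also read at the exposed sites of the same animals. Of the 36 genes that rose at control sites at 24 to 72 h, 34 had a change above 0 at exposed sites and 30 of these were called there, while 1 was called in the opposite direction. Of all genes, 28.7% were called higher at exposed sites in that comparison. In the late window it was 43 of 56, with 27 called and 3 called in the opposite direction, where 20% of all genes were called higher. Exposed and control sites share their animals and scan periods, and whether the shares differ was not tested. SCD changed by 1.94 and 2.05 at exposed sites, ELOVL6 by 1.54 and 1.47 and FASN by 1.44 and 1.38. KRT2 went the other way, with -1.55 and -1.04 at exposed sites against 1.20 and 1.68 at control sites.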

How the data were processed

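Expression was measured on 63 Affymetrix porcine arrays. Each probe set has a log2 value per array, which the authors made with RMA (background correction, quantile normalisation and summarisation), with Partek also named, both without a version per the submitters' processing notes. How replicates were treated before deposit is not given in the sources used here. The values were used as deposited. They ran from 4.053 to 14.51 over the control arrays. The SD of the difference between 2 control arrays of one time ran from 0.231 to 0.583, with a median of 0.36.

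After 124 control probe sets were left out, 23999 were tested. The platform annotation gave 1 symbol for 10069 of them, several for 198 and none for 13732, and 9961 of the first matched RefSeq (Sscrofa11.1). Where a gene had several probe sets, as 2261 of 6765 genes did, the one with the highest mean over the 27 control arrays was used. Tests compare each probe set with itself across arrays, and levels of different probe sets are given only as a coarse check of the tissue.

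limma 3.58.1 in R 4.3.3 fitted the 27 control arrays with window and scan period as terms (22 residual degrees of freedom), and p-values were adjusted over all 23999 probe sets by the method of Benjamini and Hochberg. Single times were contrasted in a fit with 1 mean per time, and differences from sham as an interaction over 27 control and 9 sham arrays. Changes at exposed sites came from the same contrasts over the exposed arrays. The fit was tested on simulated data: it recovered 72% of probe sets changed by 0.5 and 100% of those changed by 1, 2 or 4 on the log2 scale in the 24 to 72 h comparison, with 14 false calls beside 200 changed probe sets among the 23999. The simulated noise was independent between arrays and between probe sets. In the data the arrays of one time had a correlation of 0.1, so the simulation does not give the false calls to expect there.

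Genes were named by rule: the 12 largest rises and falls past the threshold with 1 sign in all 3 scan periods, leaving out muscle, ribosomal protein and respiratory chain genes, the next 5 by p where fewer fell, the 3 smallest p where nothing passed, and the leading members of 35 lists. The comparison, the members and the lists were chosen with earlier results of these data known. Same-numbered replicates did not deviate together (mean correlation -0.0143, against 0.00657 for other numbers), so the number was not used as a pairing.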

Additional observations from a re-analysis of the deposited data

Results flagged for a closer look

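In 132 sets of 9 arrays (a named gene in a window), 4 held an array far from the other 8, where chance alone flags about 1 set in 20. PAPSS2 was 11.06 on array 1 of 24 h, above the 8.936 to 9.805 of the other arrays at 24 to 72 h. FBXW4 was 8.037 on array 3 of 336 h, below the 8.539 to 8.928 of the other late arrays. DAPL1 was 9.845 on array 3 of 168 h, below 10.63 to 11.19. SPRP was 13.11 on array 2 of 168 h, above 12.68 to 12.88.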

How the results depend on the processing

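The main counts were 98 probe sets at 24 to 72 h and 132 at 168 to 514 h against 1 to 4 h, and 0 between the later windows, here given in that order. They were 173, 215 and 4 with 1 mean per time, 363, 376 and 55 with all 63 arrays in one fit, 333, 83 and 14 once the muscle score was a covariate, and 159, 272 and 31 with array weights. They were 0 and 28 with time as a random block, 2 and 16 with no scan period term, 3 and 48 with the date of in vitro transcription in its place, 1 and 5 with the date of RNA extraction, and 0 and 66 with log storage days as a covariate, all with 0 between the later windows. Asking for 2-fold as well left 9 and 9. Without 1 h they were 242, 261 and 1, without 2 h 11 and 58, without 4 h 0 and 9, without 24 h 0 at 24 to 72 h, without 48 h 19, without 72 h 10 and, between the later windows, 6. Without 336 h they were 34 at 168 to 514 h and 36 between the later windows, and without 514 h 36 at 168 to 514 h. Leaving out 1 array gave 23 to 212, 50 to 265 and 0 to 2. The cause of these shifts was not tested. A sacrifice-day block, a repeated quantile normalisation, median centring, a filter on dim probe sets and a trended, robust moderation stayed within 1.5 times of the main counts. The numbers do not pair animals, and with the replicate block the counts were 105, 114 and 0.

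For single times, the 6 arrays of the pair alone gave 0 from 1 to 24 h, 1 from 1 to 168 h, 0 from 2 to 48 h, 0 from 4 to 72 h and 0 from 4 to 514 h. Leaving out 1 array gave 2 to 16, 0 to 10, 4 to 68, 0 to 42 and 0 to 289 for these pairs, and 0 to 13 from 2 to 336 h. The counts of differences from sham were 0 under all alternatives run. Without 1 array the muscle score differed by 0.1597 to 0.9523, by -1.465 to -0.6208 and by -2.029 to -1.253. ACTA1 alone as the muscle score was not run, since no probe set had that name.

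The 43 named results that were called kept their call in 418 of 644 fits under other settings, in 816 of 1161 with 1 array left out and in 167 of 387 with 1 time left out, and none changed sign. CAPSL and KRT19 at 24 to 72 h, and SCD, ELOVL6, FASN, MRAS and GADD45B at 168 to 514 h, kept it without any single array. AHSP, which was not called, went from -0.05 at 168 to 514 h to 0.02735 without 2 h and to 0.02069 without 336 h.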
